A study of Mus musculus with 9 samples.

Results

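Olfactory receptors are odorant-sensing G-protein-coupled receptors, and their genes (Olfr in the mouse) form the largest gene family of the mouse genome. Described here are the Olfr genes with measurable RNA in male germ cells of the mouse testis. The mRNA table of the series lists 1097 Olfr genes apart from pseudogenes. A gene was taken when its level was at least 0.2 FPKM (a level per transcript length and sequencing depth) in all 3 libraries of at least 1 germ cell stage, and 75 genes, 6.84%, met this. These same stage levels chose the genes, so their levels by stage are given as a description.

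The libraries come from adult mice on a normal diet: 3 of spermatogonia (types A and B, dividing germ cells), 3 of pachytene spermatocytes (in meiotic prophase) and 3 of round spermatids (haploid cells that later form sperm). The labels give no genotype, strain or treatment, and neither the source animals of single libraries nor the way the cells were purified. The p-values below measure only the spread between these samples, which may be technical. Bulk RNA does not tell fewer cells of a type from less RNA per cell.

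In the olfactory epithelium each sensory neuron expresses a single receptor gene, chosen from clusters spread over most chromosomes. The receptor couples through the G protein Golf (Gnal) to adenylyl cyclase 3 (Adcy3), and the cyclic AMP made opens a cation channel (Cnga2, Cnga4 and Cngb1) and then the chloride channel Ano2. A smaller number of receptors are known from testis and sperm. The best known in the mouse is Olfr16, also called MOR23, which responds to the odorant lyral and has been linked to sperm calcium signals. Class I receptors, the older branch shared with fish, are encoded in a cluster on chromosome 7, and class II receptors elsewhere.

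The stages separate by their own markers, with limits. Over 8 spermatogonia genes the sum was 284 to 372 FPKM in spermatogonia, 38.4 to 41.8 in pachytene and 77.1 to 80.7 in round spermatids. Over 7 pachytene genes it was 106 to 127, 2832 to 3022 and 1208 to 1298 in the same order. Pgk2 of this list was at 172 to 178 FPKM in pachytene and 674 to 724 in round spermatids, and Ccna1 was also higher there. Sycp1 overlapped between pachytene and round spermatids, and Gfra1 between spermatogonia and round spermatids. Summed over 7 round spermatid genes (Acrv1, Prm1, Prm2, Spaca1, Tnp1, Tnp2 and Tssk4), the level was 1.21 to 1.97 FPKM in spermatogonia, 1351 to 1533 in pachytene and 15053 to 15488 in round spermatids. Pachytene libraries thus held 7.78 to 10.1% of the round spermatid level of each of these genes. Summed over 8 Sertoli cell genes, the level was 1141 to 1350 FPKM in spermatogonia, 270 to 283 in pachytene and 72.4 to 75.2 in round spermatids. Clu and Aard held most of this sum. Rhox5 of this list was lowest in spermatogonia, at 0.613 to 1.13, 3.67 to 4.58 and 2.02 to 2.21 FPKM in the same order. The sum over 7 Leydig cell genes was highest in pachytene. It was 36.9 to 42.0, 89.6 to 97.1 and 19.0 to 27.8 FPKM in the same order. Insl3 held 61.8 to 69.2 FPKM of the pachytene sum, and Hsd17b3 of this list was highest in spermatogonia. Spermatogonia replicate 3 stood apart from replicates 1 and 2 in genes of macrophages (20.5 against 5.14 and 4.14 FPKM summed), of erythroid cells (317 against 125 and 114), of peritubular and fibroblast cells (393 against 228 and 182) and of endothelial cells (67.7 against 35.2 and 29.9). In the peritubular and fibroblast list, Dcn (126 against 23.0 and 20.1) and Des (65.8 against 1.76 and 1.33) made up most of this difference. Acta2 and Myh11 of that list lay within the range of replicates 1 and 2, and Col1a1 and Pdgfra were barely above it. The macrophage genes summed to 0.644 to 2.04 FPKM in pachytene and to 10.5 to 12.2 in round spermatids. Their round spermatid sums thus lay above those of spermatogonia replicates 1 and 2. The peritubular and fibroblast genes summed to 9.73 to 36.5 FPKM in the later stages, the endothelial genes to 4.05 to 11.3 and the erythroid genes to 2.16 to 7.08. Alas2 of the erythroid list did not fall in pachytene (4.73 to 5.67 FPKM against 1.61 to 4.80 in spermatogonia).

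Promoters are shown for 4 genes whose transcript start lies apart from the coding start in both annotations used. In RefSeq on GRCm38.p6, 63 of the 75 genes have a promoter entry (250 bases before to 50 after the start). For 10 of the 63 the start lies at least 500 nt upstream of the coding start and within 50 nt of a start in GENCODE M21. Shown are Olfr701, the gene with the highest level (chr7:106813879-106814178, plus strand), Olfr212 (chr6:116506266-116506565, plus strand), Olfr301 (chr7:86403599-86403898, plus strand) and Olfr544, the one of the 10 that is highest in spermatogonia (chr7:102488258-102488557, minus strand). Capitals mark matches, on either strand, to the letters of the motifs described next. The 4 are examples that each hold a match, while Olfr183 and Olfr181, also among the 10, hold none.
Olfr701: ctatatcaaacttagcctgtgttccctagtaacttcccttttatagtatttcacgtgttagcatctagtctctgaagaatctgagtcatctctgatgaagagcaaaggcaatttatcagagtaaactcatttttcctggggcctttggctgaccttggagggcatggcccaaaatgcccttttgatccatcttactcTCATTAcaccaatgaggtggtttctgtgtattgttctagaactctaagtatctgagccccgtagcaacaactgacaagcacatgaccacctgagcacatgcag
Olfr212: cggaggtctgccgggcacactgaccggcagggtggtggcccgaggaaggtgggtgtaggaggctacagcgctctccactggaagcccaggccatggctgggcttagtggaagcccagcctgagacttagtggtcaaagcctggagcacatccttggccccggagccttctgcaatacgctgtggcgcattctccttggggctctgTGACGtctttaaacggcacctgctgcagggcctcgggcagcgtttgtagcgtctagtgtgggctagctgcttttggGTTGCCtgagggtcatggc
Olfr301: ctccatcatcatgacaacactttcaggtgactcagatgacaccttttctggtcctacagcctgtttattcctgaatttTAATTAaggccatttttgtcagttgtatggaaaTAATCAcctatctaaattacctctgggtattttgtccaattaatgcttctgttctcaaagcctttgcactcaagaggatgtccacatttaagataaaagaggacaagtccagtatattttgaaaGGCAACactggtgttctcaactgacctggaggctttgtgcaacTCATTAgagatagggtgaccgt
Olfr544: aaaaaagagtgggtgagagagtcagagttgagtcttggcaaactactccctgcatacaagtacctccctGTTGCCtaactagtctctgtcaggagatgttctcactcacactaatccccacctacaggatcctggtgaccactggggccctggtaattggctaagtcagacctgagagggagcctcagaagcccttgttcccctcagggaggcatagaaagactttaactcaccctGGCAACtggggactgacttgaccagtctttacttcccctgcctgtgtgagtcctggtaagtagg

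Motifs of testis and olfactory regulators were looked up in the 10 windows, on both strands, and overlapping matches were allowed. TGACG, a core of the cyclic AMP response element, bound in spermatids by CREM, was in 1 of the 10 windows (Olfr212), against 21.0% of 27025 RefSeq promoters of the same length. GTTGCC, a part of the X-box bound by RFX factors, was in 4 of 10, among them Olfr212, Olfr301 and Olfr544, against 12.7% of all. The homeobox core TAATNA, which LHX2-type factors bind, was in 6 of 10, among them Olfr701 and Olfr301, against 26.8%. The site of Olf/EBF factors was in 0 of 10, against 0.914% of all. A match is a description of the letters only.

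Of the 75 genes, 60 reached the level in round spermatids, 24 in pachytene and 6 in spermatogonia. Of all 39305 features, 17615, 15922 and 15982 reached it in the same order. The highest stage mean fell in round spermatids for 59 of the 75 genes, in pachytene for 11 and in spermatogonia for 5. A single stage qualified for 61 genes (47 round spermatids, 10 pachytene, 4 spermatogonia), and pachytene and round spermatids together for 12. Olfr543 qualified in spermatogonia and pachytene, and Olfr613 in all 3 stages. Levels were low: 26 genes had a stage mean of at least 1 FPKM, 5 of at least 5, and 3 of at least 10, and the median over genes of the highest stage mean was 0.724 FPKM. Summed over the 75 genes, the stage means were 6.12 FPKM in spermatogonia, 25.1 in pachytene and 125 in round spermatids, and 3 genes (Olfr701, Olfr112 and Olfr128) made up 36.8% of the last sum.

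**Figure D1:**
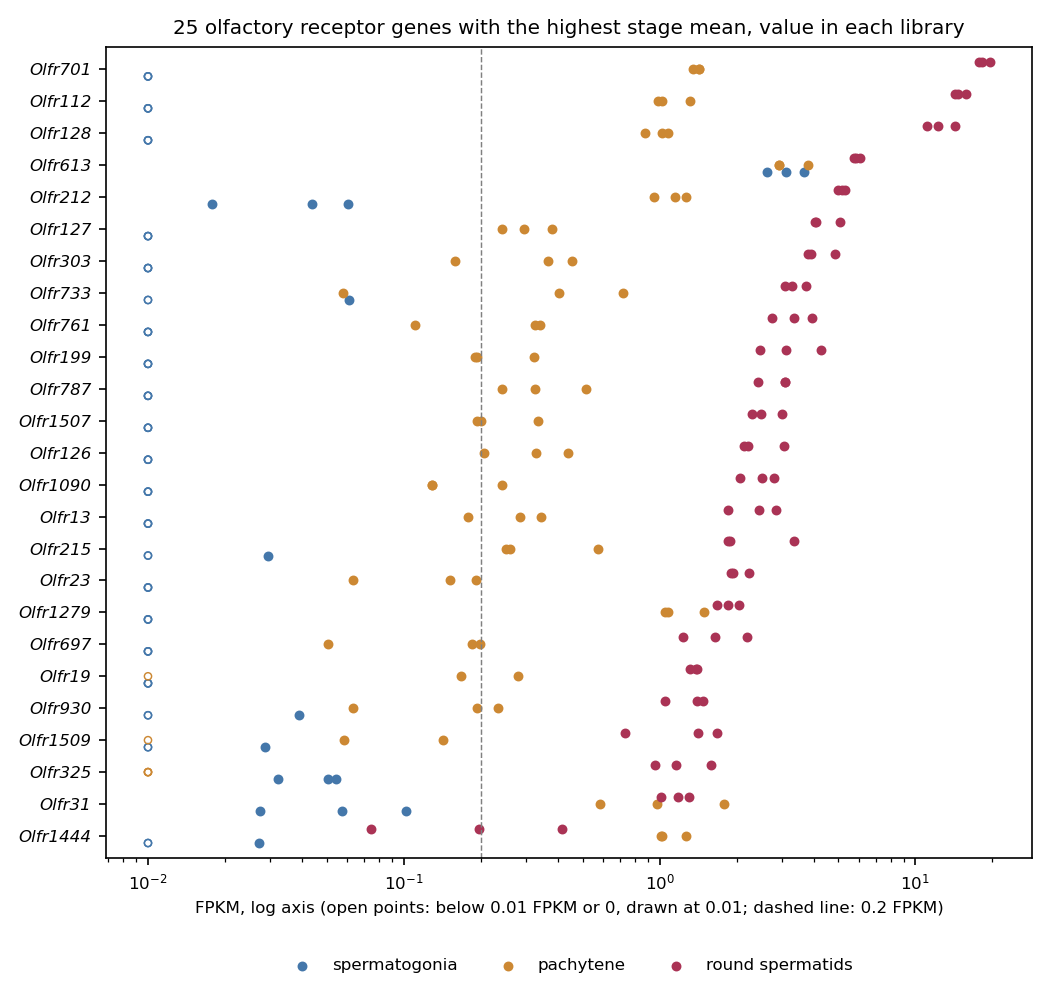
Level of the 25 genes with the highest stage mean in each of the 9 libraries (FPKM, log axis); each point is a library, and open points stand for values below 0.01 FPKM. Round spermatid points lie to the right for all genes but Olfr31, where they overlap pachytene, and Olfr1444, where pachytene is to the right.

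The most abundant were Olfr701 on chromosome 7 and Olfr112 and Olfr128 on chromosome 17. Olfr701 (chr7:106814144-106820709, GRCm38) was listed at 0, 0 and 0.00627 FPKM in spermatogonia, 1.35, 1.42 and 1.42 FPKM in pachytene and 19.6, 17.8 and 18.2 FPKM in round spermatids. Olfr112 (chr17:37563228-37567094) was listed at 0, 0 and 0.00696 FPKM in spermatogonia, 1.03, 1.32 and 0.988 FPKM in pachytene and 15.8, 14.2 and 14.7 FPKM in round spermatids. Olfr128 (chr17:37923516-37924555) was listed at 0 in all 3 libraries of spermatogonia, 1.02, 1.08 and 0.875 FPKM in pachytene and 14.3, 12.3 and 11.1 FPKM in round spermatids. All 3 were at or near 0 in spermatogonia, and every round spermatid library lay above every pachytene library.

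Olfr613 (chr7:103550368-103555504), in the class I cluster of chromosome 7, had a different pattern. It was listed at 2.63, 3.12 and 3.68 FPKM in spermatogonia, 3.82, 2.94 and 2.94 FPKM in pachytene and 6.08, 5.88 and 5.77 FPKM in round spermatids. Its spermatogonia and pachytene libraries overlapped, and the round spermatid libraries lay above both. It was the only one of the 75 above 1 FPKM in every library. Olfr212 (chr6:116506516-116517965) was listed at 0.0178, 0.0603 and 0.0439 FPKM in spermatogonia, 0.95, 1.15 and 1.27 FPKM in pachytene and 4.99, 5.19 and 5.3 FPKM in round spermatids, so its 3 stages did not overlap.

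Near Olfr128 on chromosome 17 lie 3 further genes that were highest in round spermatids. Olfr127 (chr17:37903522-37904616) was listed at 0 in all 3 libraries of spermatogonia, 0.381, 0.294 and 0.241 FPKM in pachytene and 5.06, 4.07 and 4.1 FPKM in round spermatids. Olfr126 (chr17:37850594-37851553) was listed at 0 in all 3 libraries of spermatogonia, 0.437, 0.206 and 0.33 FPKM in pachytene and 3.07, 2.22 and 2.14 FPKM in round spermatids. Olfr761 (chr17:37952051-37953022) was listed at 0 in all 3 libraries of spermatogonia, 0.327, 0.342 and 0.111 FPKM in pachytene and 3.35, 3.94 and 2.76 FPKM in round spermatids. Each was at 0 in spermatogonia and had no overlap between pachytene and round spermatids. These 4 genes share sequence: of all stretches of 100 bases in the coding sequence, taken at every start position, 24.8% in Olfr128, 31.7% in Olfr127, 17.4% in Olfr126 and 8.28% in Olfr761 were found word for word in another Olfr transcript, in each case one of these 4. How reads that fit several of them were assigned is not given in the sources used here, so their separate levels are uncertain.

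Olfr303 (chr7:86394496-86395535), in a cluster of chromosome 7, was listed at 0 in all 3 libraries of spermatogonia, 0.366, 0.454 and 0.159 FPKM in pachytene and 4.87, 3.82 and 3.91 FPKM in round spermatids. Olfr733 (chr14:50298337-50299330) was listed at 0.0613, 0 and 0 FPKM in spermatogonia, 0.0577, 0.717 and 0.404 FPKM in pachytene and 3.73, 3.3 and 3.09 FPKM in round spermatids. Olfr199 (chr16:59215685-59216615) was listed at 0 in all 3 libraries of spermatogonia, 0.193, 0.322 and 0.189 FPKM in pachytene and 3.13, 2.48 and 4.27 FPKM in round spermatids. In all 3 genes the round spermatid libraries lay above the others, and pachytene ranged widely in Olfr733. Olfr787 (chr10:129462678-129463616) was listed at 0 in all 3 libraries of spermatogonia, 0.325, 0.242 and 0.514 FPKM in pachytene and 3.09, 3.08 and 2.42 FPKM in round spermatids. Olfr1090 (chr2:86753795-86754736) was listed at 0 in all 3 libraries of spermatogonia, 0.129, 0.241 and 0.129 FPKM in pachytene and 2.51, 2.81 and 2.06 FPKM in round spermatids. Olfr13 (chr6:43173952-43175005) was listed at 0 in all 3 libraries of spermatogonia, 0.286, 0.179 and 0.343 FPKM in pachytene and 2.85, 2.45 and 1.85 FPKM in round spermatids. These 3 were at 0 in every spermatogonia library, and every round spermatid library lay above every pachytene library.

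Olfr1507, Olfr1508 and Olfr1509, known as MOR28, MOR10 and MOR83, are neighbours on chromosome 14 whose choice in sensory neurons depends on a shared enhancer, the H element. Olfr1507 (chr14:52489935-52495695) was listed at 0 in all 3 libraries of spermatogonia, 0.194, 0.201 and 0.334 FPKM in pachytene and 3, 2.5 and 2.31 FPKM in round spermatids. Olfr1509 (chr14:52450393-52451402) was listed at 0, 0 and 0.0287 FPKM in spermatogonia, 0, 0.143 and 0.0583 FPKM in pachytene and 1.68, 1.41 and 0.732 FPKM in round spermatids. Olfr1508, which lies between them (chr14:52462721-52467461), was lower, listed at 0 in all 3 libraries of spermatogonia, 0.0914, 0.0826 and 0.0688 FPKM in pachytene and 0.734, 1.05 and 0.901 FPKM in round spermatids. All 3 were highest in round spermatids, without overlap with pachytene.

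Olfr215 (chr6:116581938-116583031), in the cluster of Olfr212 on chromosome 6, was listed at 0, 0.0295 and 0 FPKM in spermatogonia, 0.251, 0.577 and 0.26 FPKM in pachytene and 1.85, 1.89 and 3.35 FPKM in round spermatids. Olfr23 (chr11:73940248-73941225) was listed at 0 in all 3 libraries of spermatogonia, 0.0633, 0.152 and 0.192 FPKM in pachytene and 1.91, 2.23 and 1.94 FPKM in round spermatids. Olfr697 (chr7:106740910-106741956) was listed at 0 in all 3 libraries of spermatogonia, 0.198, 0.185 and 0.0507 FPKM in pachytene and 1.65, 2.19 and 1.23 FPKM in round spermatids. Round spermatids again lay above the other stages without overlap. Olfr19 (chr16:16672998-16674017) was listed at 0 in all 3 libraries of spermatogonia, 0.167, 0 and 0.28 FPKM in pachytene and 1.38, 1.41 and 1.31 FPKM in round spermatids. Olfr930 (chr9:38930173-38931099) was listed at 0, 0.039 and 0 FPKM in spermatogonia, 0.0631, 0.234 and 0.193 FPKM in pachytene and 1.05, 1.4 and 1.47 FPKM in round spermatids. Olfr325 (chr11:58580846-58581826) was listed at 0.0541, 0.0322 and 0.0506 FPKM in spermatogonia, 0 in all 3 libraries of pachytene and 0.959, 1.16 and 1.59 FPKM in round spermatids. Olfr325 was thus at 0 in pachytene although a few fragments were counted in spermatogonia, and 28.9% of its 100-base stretches are shared with other Olfr transcripts.

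Of the 25 genes with the highest stage mean, Olfr1279, Olfr31 and Olfr1444 had the highest pachytene level relative to round spermatids. Olfr1279 (chr2:111306201-111307142) was listed at 0 in all 3 libraries of spermatogonia, 1.5, 1.08 and 1.05 FPKM in pachytene and 1.85, 2.05 and 1.67 FPKM in round spermatids. Olfr31 (chr14:14328113-14329066) was listed at 0.0575, 0.102 and 0.0274 FPKM in spermatogonia, 0.976, 1.79 and 0.584 FPKM in pachytene and 1.02, 1.18 and 1.31 FPKM in round spermatids. Olfr1444 (chr19:12861742-12862771) was listed at 0, 0 and 0.0271 FPKM in spermatogonia, 1.27, 1.01 and 1.03 FPKM in pachytene and 0.196, 0.416 and 0.0744 FPKM in round spermatids. The pachytene and round spermatid libraries overlapped, of these 3, in Olfr31, and Olfr1444 was the only one of the 25 highest in pachytene.

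The other 10 genes highest in pachytene were Olfr161, Olfr1280, Olfr1278, Olfr25, Olfr279, Olfr874, Olfr30, Olfr262, Olfr1446 and Olfr873. Their pachytene means ranged from 0.238 FPKM for Olfr873 to 0.976 for Olfr161, with round spermatid means from 0.0323 (Olfr262) to 0.406 (Olfr1280). Olfr161 was listed at 0 in all 3 libraries of spermatogonia, 1.55, 0.453 and 0.929 FPKM in pachytene and 0.227, 0.314 and 0.176 FPKM in round spermatids. Olfr1280 was listed at 0 in all 3 libraries of spermatogonia, 1.26, 1.1 and 0.544 FPKM in pachytene and 0.695, 0.18 and 0.344 FPKM in round spermatids. Olfr1278 was listed at 0 in all 3 libraries of spermatogonia, 1.38, 0.572 and 0.788 FPKM in pachytene and 0.432, 0.27 and 0.283 FPKM in round spermatids. Every pachytene library lay above every round spermatid library in Olfr161 and Olfr1278, and the stages overlapped in Olfr1280.

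The 5 genes highest in spermatogonia were Olfr543, Olfr267, Olfr692, Olfr455 and Olfr544, and they are given by library because they are so few. Olfr543 was listed at 0.595, 0.929 and 0.639 FPKM in spermatogonia, 0.558, 0.314 and 0.413 FPKM in pachytene and 0.505, 0.103 and 0.21 FPKM in round spermatids. Olfr267 was listed at 0.435, 0.665 and 0.373 FPKM in spermatogonia, 0, 0.149 and 0.0613 FPKM in pachytene and 0, 0.0617 and 0 FPKM in round spermatids. Olfr455 was listed at 0.206, 0.344 and 0.263 FPKM in spermatogonia, 0 in all 3 libraries of pachytene and 0, 0.161 and 0 FPKM in round spermatids. The spermatogonia libraries lay above both later stages without overlap in each of these 3. Olfr544, which responds to azelaic acid, was listed at 0.303, 0.21 and 0.273 FPKM in spermatogonia, 0.158, 0.0679 and 0.112 FPKM in pachytene and 0.0653, 0.0562 and 0.0742 FPKM in round spermatids. Olfr692 was listed at 0.326, 0.256 and 0.272 FPKM in spermatogonia, 0.147, 0.248 and 0.103 FPKM in pachytene and 0.559, 0.258 and 0 FPKM in round spermatids. The spermatogonia libraries of Olfr544 also lay above both later stages, and those of Olfr692 lay above pachytene but within the range of round spermatids. The summed Sertoli, peritubular and fibroblast, endothelial and erythroid cell markers were also highest in spermatogonia, as given above. Their part in these 5 genes was not tested.

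The remaining 35 genes were highest in round spermatids at stage means of at most 1.05 FPKM. From the highest they were Olfr27, Olfr554, Olfr1508, Olfr1494, Olfr1413, Olfr183, Olfr181, Olfr301, Olfr700, Olfr33, Olfr1393, Olfr643, Olfr357, Olfr1495, Olfr639, Olfr308, Olfr702, Olfr165, Olfr371, Olfr860, Olfr456, Olfr307, Olfr196, Olfr24, Olfr275, Olfr362, Olfr57, Olfr194, Olfr361, Olfr16, Olfr273, Olfr1257, Olfr644, Olfr419 and Olfr1351. Olfr16 was among the lowest of them, listed at 0 in all 3 libraries of spermatogonia, 0.16, 0 and 0 FPKM in pachytene and 0.341, 0.273 and 0.236 FPKM in round spermatids.

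At the limit of the rule, the last genes inside were Olfr419, at 0.203 to 0.232 FPKM in the round spermatid libraries, Olfr1351 at 0.203 to 0.233 and Olfr1257 at 0.206 to 0.346. The first outside were Olfr1328, whose lowest spermatogonia library was at 0.199 FPKM, and Olfr1336 and Olfr323, whose lowest pachytene libraries were each at 0.196 FPKM. Low values tended to lie near multiples of a step, taken as 1 fragment: per library, 71.4 to 83.3% of the low values lay within 0.15 of a whole number of steps, and the others did not. The step was the median of the lowest of these same values, so part of this share is built in. Over 948 Olfr genes with a listed interval under 1200 nt, 1 fragment was worth 0.0280 to 0.0839 FPKM per library at a length of 1 kb. A level of 0.2 FPKM at 1 kb therefore stands for 3.43, 5.84 and 7.15 fragments in spermatogonia replicates 1 to 3, 2.70 to 3.46 in pachytene and 2.38 to 3.36 in round spermatids. Of the 75 genes, 56 have such a short interval, and their lowest qualifying library held by median 7.33 fragments and at the least 2.62 (66 genes and stages). These fragment numbers are rough estimates from the FPKM values.

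**Figure D2:**
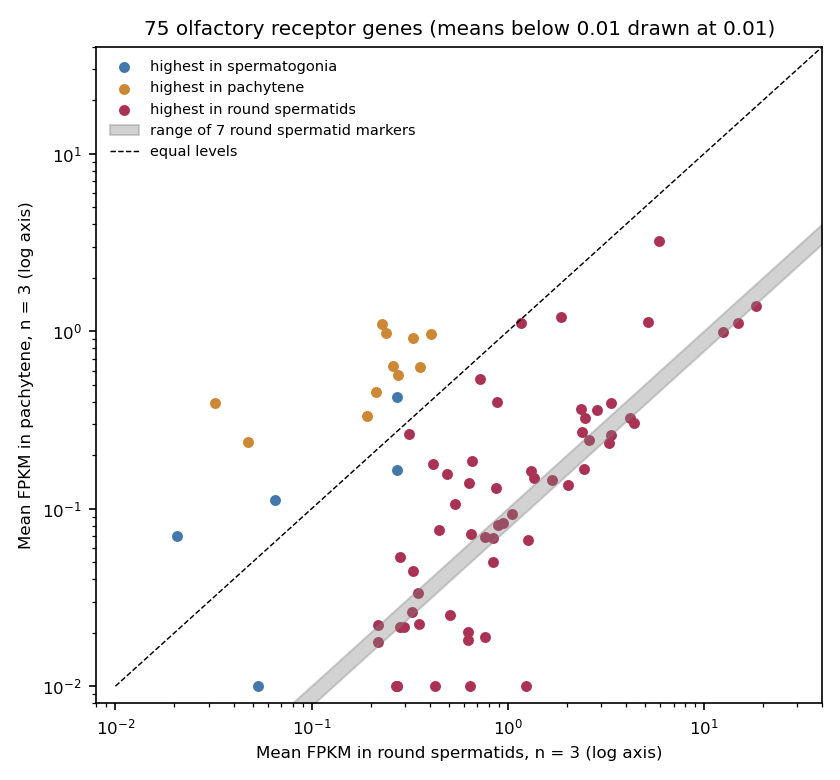
Mean level of the 75 genes in round spermatids (x axis) and pachytene (y axis), in FPKM on log axes, n = 3 libraries each; the grey band is the range of the pachytene level as a share of the round spermatid level over 7 round spermatid marker genes (7.78 to 10.1%). Olfr701, Olfr112 and Olfr128 lie in the band or just below it, and Olfr613, Olfr212, Olfr1279 and Olfr31 lie above it.

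The pachytene level of many genes was close to the share at which round spermatid markers appear there. Among the 25 genes highest in round spermatids with a mean of at least 1 FPKM (those described above without Olfr1444 and with Olfr27), pachytene stood at a median of 8.91% of the round spermatid level. It was at or below the highest marker share of 10.1% in 14 of the 25, with Olfr701 at 7.54%, Olfr112 at 7.45% and Olfr128 at 7.9%. It was above that share in 11, with Olfr212 at 21.8%, Olfr613 at 54.7%, Olfr1279 at 65% and Olfr31 at 95.5%. Whether round spermatid RNA in the pachytene libraries gives these levels was not tested.

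Across all features, limma on log2(FPKM + 0.1) tested 20570, the 75 genes among them. Calls needed a difference of at least 1 on the log2 scale in either direction, with an adjusted p under 0.05. In pachytene against spermatogonia, 37 of the 75 were called higher and 2 lower (Olfr267 and Olfr455), where 33.3% of all features were called higher and 31.3% lower. The median marker share (8.69, 9.15 and 8.29% of the round spermatid mean) was also subtracted from pachytene replicates 1 to 3. This alternative, chosen after seeing the data, left 16 of the 75 called higher and 2 lower. Over all 20570 features it left 5318 called higher and 7259 lower. In round spermatids against pachytene, 51 were called higher and 7 lower (Olfr161, Olfr25, Olfr262, Olfr873, Olfr1278, Olfr1280 and Olfr1444), where 27.1% of all features were called higher and 12.4% lower. In round spermatids against spermatogonia, 65 were called higher and 4 lower (Olfr267, Olfr455, Olfr543 and Olfr544), where 36.9% of all features were called higher and 29.5% lower. The median log2 fold changes of the 75 genes were 0.91, 1.88 and 2.75 in this order, and those of all features 0.12, 0.17 and 0.15. Leaving out round spermatid replicate 1, 2 or 3 left 30, 30 and 28 calls against pachytene and 41, 39 and 41 against spermatogonia, since 46 of the 75 then passed the filter. Over all features, of a number tested that was not kept, these runs called 4767 to 4795 higher and 2491 to 2570 lower against pachytene. Against spermatogonia they called 6841 to 6854 higher and 5938 to 6036 lower. With a pseudocount of 1 FPKM in place of 0.1, 5, 20 and 24 of the 75 were called in the 3 comparisons. Over all features 5226 were then called higher and 4214 lower, 3408 and 1623, and 5934 and 4053, in the same order. Since a gene entered through the stage in which it was high, nothing is read from these counts, and the comparisons share libraries.

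By library ranges, the round spermatid libraries lay wholly above pachytene in 56 genes and wholly below in 7. They lay wholly above spermatogonia in 67 and below in 4. The pachytene libraries lay wholly above spermatogonia in 40 and below in 6. In spermatogonia, 44 of the 75 were listed at 0 in all 3 libraries, and in pachytene 6. Shares over all features were not counted for these ranges and zeros. The same levels chose the genes, so nothing is read from these counts. The authors' deposited table of called features lists 12 of the genes as higher in pachytene than in spermatogonia and 1, Olfr267, as lower, where it lists 14.6% of all features as higher and 15.3% as lower. The authors' deposited table for round spermatids against pachytene lists 31 as higher and 4 as lower (Olfr161, Olfr1278, Olfr1280 and Olfr1444), where it lists 12.9% and 10.9% of all features.

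**Figure D3:**
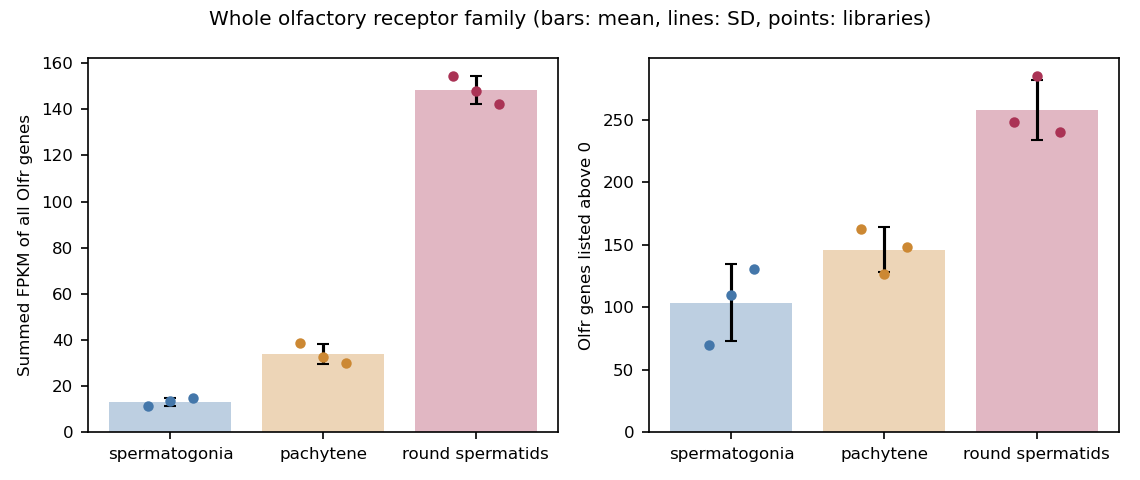
Summed level (left) and number of genes listed above 0 (right) for all 1097 Olfr genes in each library; bars show the mean of 3 libraries, lines the SD and points the libraries. The summed level runs from 11.3 to 14.9 FPKM in spermatogonia, 30.2 to 38.6 in pachytene and 142 to 154 in round spermatids.

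The whole family was not chosen by values and can be tested. Summed over the 1097 genes, the level was 11.3, 13.5 and 14.9 FPKM in spermatogonia, 38.6, 32.6 and 30.2 in pachytene and 154, 148 and 142 in round spermatids. The stages did not overlap, and the means were 13.2 ± 1.82, 33.8 ± 4.35 and 148 ± 6.08 FPKM (SD, n = 3 each; exact two-sided permutation test over the 3 stages, p = 0.00357). Each pair of stages gave an exact p of 0.1, the smallest that 3 against 3 libraries allow, and 0.1 adjusted over the 3 pairs. The number of genes above 0 was 70, 110 and 131 in spermatogonia, 163, 127 and 148 in pachytene and 248, 285 and 240 in round spermatids (exact permutation test over stages, p = 0.00714). Spermatogonia and pachytene overlapped in this number (exact p = 0.2, adjusted 0.2), and round spermatids lay above both (exact p = 0.1 each, adjusted 0.15). In the genes outside the 75, which the same stage values set apart and which are therefore given with no test, the summed level was 5.89 to 8.64 FPKM in spermatogonia, 6.85 to 11.2 in pachytene and 21.6 to 24.2 in round spermatids. Spermatogonia and pachytene overlapped there. A number above 0 also depends on depth, which by the steps above was highest in spermatogonia replicates 2 and 3.

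The 75 genes were spread over many clusters. Taking runs of Olfr genes with gaps under 1 Mb, the 1097 genes fall into 48 clusters, and 29 of them hold at least 1 of the 75. In 18 clusters there are 2 or more, 64 genes in all. The share of a cluster's genes that met the rule ranged widely. The largest cluster, on chromosome 2 (chr2:85330897-90282573), has 219 Olfr genes and 2 that qualified, Olfr1090 and Olfr1257. A cluster of 15 genes on chromosome 7 (chr7:86268730-86695384) has 4, Olfr308, Olfr307, Olfr303 and Olfr301, all highest in round spermatids.

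**Figure D4:**
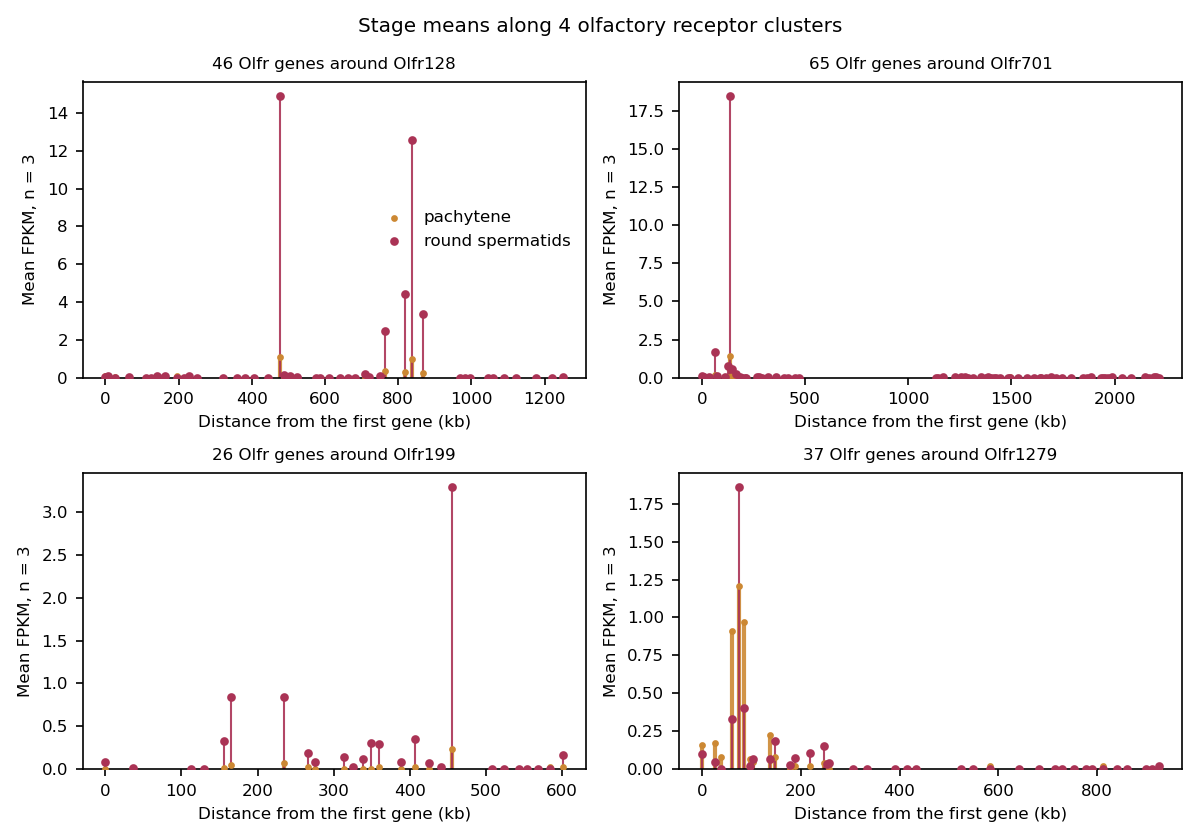
Mean level in pachytene and round spermatids (FPKM, n = 3) of every Olfr gene along 4 clusters, by distance from the first gene of the cluster in kb. A few genes stand out among neighbours near 0: Olfr112 and Olfr128 in the first cluster, Olfr701 in the second, Olfr199 in the third, and Olfr1279 with pachytene-high Olfr1278 and Olfr1280 in the fourth.

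On chromosome 17 (chr17:37085191-38336097) 5 of 46 Olfr genes qualified, Olfr112, Olfr126, Olfr127, Olfr128 and Olfr761, all highest in round spermatids. On chromosome 16 (chr16:58760152-59362216) 5 of 26 did, Olfr181, Olfr183, Olfr194, Olfr196 and Olfr199, again all highest in round spermatids. The cluster of Olfr701 (chr7:106677534-108894420) has 4 of 65, Olfr697, Olfr700, Olfr701 and Olfr702, which lie within its first part and were all highest in round spermatids. Olfr700 at 0.764 and Olfr702 at 0.539 FPKM, the genes on either side of Olfr701, were far below its 18.5 FPKM in round spermatids. On chromosome 14 (chr14:49894260-52495695) 4 of 36 qualified, the neighbours Olfr1507, Olfr1508 and Olfr1509, and Olfr733.

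The class I region of chromosome 7 (chr7:102476773-105369355) has 9 of 126 genes. Olfr543, Olfr544 and Olfr692 were highest in spermatogonia, and Olfr554, Olfr33, Olfr613, Olfr639, Olfr643 and Olfr644 in round spermatids. Olfr543 and Olfr544 are neighbours. The region thus has 3 of the 5 spermatogonial genes. Olfr639, Olfr643 and Olfr644 are listed with 6 other Olfr genes on 1 interval of 138606 nt (chr7:103998800-104137405).

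Some clusters held more than 1 gene highest in pachytene. On chromosome 2 (chr2:111230853-112156915) 3 of 37 Olfr genes qualified, Olfr1278 and Olfr1280 highest in pachytene and Olfr1279 in round spermatids, which lie between 111292270 and 111316398. Olfr1278, Olfr1279 and Olfr1280 had pachytene means of 0.913, 1.21 and 0.968 FPKM in this order. On chromosome 19 (chr19:11828077-13920044) 5 of 63 qualified, Olfr262, Olfr1444 and Olfr1446 highest in pachytene and Olfr1494 and Olfr1495 in round spermatids. Between chromosome 9 positions 37711348 and 40188094, 4 of 95 qualified, Olfr874 and Olfr25 (pachytene) and Olfr930 and Olfr27 (round spermatids).

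In 11 clusters a single gene qualified: Olfr1413, Olfr787, Olfr1393, Olfr23, Olfr31, Olfr279, Olfr161, Olfr19, Olfr165, Olfr267 and Olfr371. Further clusters with 3 were Olfr357, Olfr361 and Olfr362 on chromosome 2, Olfr24, Olfr860 and Olfr873 on chromosome 9, and Olfr456, Olfr455 and Olfr13 on chromosome 6. Pairs were Olfr16 with Olfr419 (chromosome 1), Olfr1351 with Olfr57 (10), Olfr30 with Olfr325 (11), Olfr275 with Olfr273 (4) and Olfr212 with Olfr215 (6). Some of these groups of 3 and pairs mix stages: Olfr455 was highest in spermatogonia, Olfr873 and Olfr30 in pachytene, and the others of these groups in round spermatids.

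Neighbouring genes outside the family were few. For 62 of the 75 genes no other feature lies within 10 kb of the listed interval. Olfr275 overlaps Gm12482 on the same strand. Olfr543 lies 7002 nt from Rrm1, a ribonucleotide reductase subunit at 29.2, 69.3 and 57.9 FPKM in spermatogonia, pachytene and round spermatids. Olfr692 lies near Fam160a2 and Gm5901 (1856 nt each), Olfr361 near Gm13434 (2542 nt) and Olfr262 near Gm26864 (5832 nt). Whether transcripts of a neighbour run into these Olfr genes was not tested.

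Shared sequence also limits single genes. Of the 75, 48 had no stretch of 100 coding bases in common with another Olfr transcript of GENCODE M21, and 27 had some. Above 20% of stretches were Olfr128, Olfr127 and Olfr325, given before, and Olfr1280 (27.7%), Olfr194 (42.6%) and Olfr643 (61.5%, in a coding model of only 138 nt). These are shares of 100-base stretches, and the share of bases they cover is higher.

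The partners of olfactory receptors in sensory neurons were followed in lists of 39 genes, of which 36 were tested. These genes were not chosen by the rule. In pachytene against spermatogonia 9 rose and 17 fell, where 33.3% of all features rose and 31.3% fell. In round spermatids against pachytene 15 rose and 2 fell, where 27.1% and 12.4% of all features did. In round spermatids against spermatogonia 13 rose and 12 fell, where 36.9% and 29.5% of all features did. The counts of the single lists below are to be read against these same shares. With libraries scaled to equal medians the counts for round spermatids against pachytene were 10 and 4, and over all features 4400 and 4893, against 5565 and 2553 as deposited. This scaling moved the median log2 fold change of all features from 0.12, 0.17 and 0.15 to 0.27, -0.22 and -0.11 in the 3 comparisons. The medians of the 36 were -0.88, 0.66 and -0.55 on the log2 scale in the 3 comparisons.

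In the transduction list 5 rose and 7 fell of 17 from spermatogonia to pachytene, beside 33.3% and 31.3% of all features. Pde1c, the calcium-dependent phosphodiesterase of olfactory cilia, was at 1.12 ± 0.862, 77.3 ± 2.05 and 68.9 ± 3.29 FPKM in spermatogonia, pachytene and round spermatids (pachytene against spermatogonia, log2 fold change 6.20, SE 0.37, adjusted p = 2.10e-07). Adrbk2, the kinase that desensitises odorant receptors, was at 0.712 ± 0.16, 16 ± 0.983 and 27.1 ± 1.38 FPKM in the same order (log2 fold change 4.33, SE 0.13, adjusted p = 1.54e-09). Both rose, while Omp, the olfactory marker protein, and Arrb2, beta-arrestin 2, fell. Omp was at 1.58 ± 0.0928, 0.0478 ± 0.0193 and 0.0456 ± 0.0173 FPKM (log2 fold change -3.51, SE 0.19, adjusted p = 1.10e-07), and the table lists it on the same interval as Capn5. Arrb2 was at 15.6 ± 1.46, 1.83 ± 0.539 and 4.68 ± 0.324 FPKM (log2 fold change -3.05, SE 0.17, adjusted p = 1.47e-07). The summed Sertoli, peritubular and fibroblast, endothelial and erythroid cell markers were lower in the later stages too, as given above. Their part in the falls was not tested.

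From pachytene to round spermatids 5 of the 17 rose and 0 fell by the fold threshold, beside 27.1% and 12.4% of all features; Gnas and Gnb1, G protein subunits, were lower by less (log2 fold changes -0.38 and -0.26, limma adjusted p = 0.00636 and 0.0112). Pde4a, a cyclic AMP phosphodiesterase, was at 1.38 ± 0.574, 3.57 ± 0.0441 and 36.6 ± 2.61 FPKM (round spermatids against pachytene, log2 fold change 3.32, SE 0.22, adjusted p = 1.18e-06). Ano2 was at 0.0381 ± 0.0352, 0.41 ± 0.104 and 2.93 ± 0.209 FPKM (log2 fold change 2.59, SE 0.24, adjusted p = 9.38e-06). Cnga4 was at 0.0499 ± 0.0263, 0.452 ± 0.0281 and 1.85 ± 0.0952 FPKM (log2 fold change 1.82, SE 0.18, adjusted p = 1.42e-05) and Cngb1 at 1.51 ± 0.174, 0.757 ± 0.0953 and 2.63 ± 0.152 FPKM (log2 fold change 1.68, SE 0.14, adjusted p = 4.42e-06). These channel and phosphodiesterase genes were thus highest in round spermatids. Gnal, Adcy3 and Cnga2, which begin the cascade and carry its channel, are given beside them and were chosen after their values were seen. Gnal was at 0.325 ± 0.0491, 0.562 ± 0.0557 and 0.573 ± 0.0507 FPKM and was called in no comparison. Adcy3 was at 3.4 ± 0.449, 1.31 ± 0.619 and 1.91 ± 0.456 FPKM and fell in pachytene (log2 fold change -1.41, SE 0.32, adjusted p = 2.76e-03). Cnga2, the subunit the olfactory channel requires, had stage means of 0.0122, 0 and 0.00989 FPKM, below the filter of the test. In round spermatids against spermatogonia the largest log2 fold changes of the list were 6.03 for Pde1c, 5.08 for Adrbk2, 4.70 for Pde4a and 4.48 for Ano2.

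Of 4 tested genes that bring receptors to the cell surface, 2 rose and 1 fell in round spermatids against pachytene, beside 27.1% and 12.4% of all features. Rtp1, the receptor transporter, was at 0.00816 ± 0.0141, 0.0845 ± 0.0275 and 1.05 ± 0.0613 FPKM (log2 fold change 2.65, SE 0.20, adjusted p = 2.74e-06). Reep6, of the receptor expression-enhancing family, was at 3.48 ± 0.53, 10.6 ± 0.156 and 68.8 ± 1.86 FPKM (log2 fold change 2.69, SE 0.09, adjusted p = 2.02e-08). Reep1 fell, from 15.3 ± 0.631 to 4.94 ± 0.0252 FPKM (log2 fold change -1.61, SE 0.08, adjusted p = 1.73e-07). Rtp4 was at 0.144, 0.211 and 0.76 FPKM in spermatogonia replicates 1 to 3 and at 0.0672 ± 0.0358 FPKM in pachytene, and was called lower in pachytene (log2 fold change -1.29, limma adjusted p = 0.0316). Its spermatogonia level is highest in replicate 3, and without that replicate it did not pass the filter of the test. The call was also lost without pachytene replicate 1 or 2 (limma adjusted p = 0.0607 and 0.0947).

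Among 15 genes that govern receptor choice in sensory neurons, 3 rose and 8 fell in pachytene against spermatogonia, beside 33.3% and 31.3% of all features, and 8 rose and 1 fell in round spermatids against pachytene, beside 27.1% and 12.4%. Emx2, a homeobox factor needed for many receptor genes, was at 0.0152 ± 0.00715, 5.85 ± 0.501 and 4.57 ± 0.975 FPKM (log2 fold change 5.69, SE 0.16, adjusted p = 1.16e-09 for pachytene). The table lists Emx2 on the same interval as its antisense gene Emx2os, and whether the counting used strand is not given in the sources used here, so this level is uncertain. Ddit3, a stress-response factor, was at 10.1 ± 0.652, 82.1 ± 1.12 and 46.1 ± 0.349 FPKM (log2 fold change 3.02, SE 0.05, adjusted p = 4.53e-11). Ehmt1, a histone H3 lysine methyltransferase subunit, was at 24 ± 2.56, 2.47 ± 0.728 and 5.55 ± 0.348 FPKM (log2 fold change -3.27, SE 0.18, adjusted p = 1.39e-07), and Eif2ak3, the kinase PERK, at 6.02 ± 0.286, 0.613 ± 0.148 and 1.58 ± 0.339 FPKM (log2 fold change -3.12, SE 0.18, adjusted p = 2.02e-07). Lhx2, a LIM homeobox factor at olfactory enhancers, was at 1.69 ± 0.296, 0.719 ± 0.115 and 6.94 ± 0.684 FPKM and rose in round spermatids against pachytene (log2 fold change 3.11, SE 0.16, adjusted p = 2.38e-07). Atf5 and Ebf2 also rose there, by 2.11 and 1.95 on the log2 scale, and Lbr, the lamin B receptor, fell by 1.68. Ebf1 was highest in spermatogonia replicate 3, at 1.49, 1.61 and 3.97 FPKM over the 3 replicates, and fell in round spermatids against spermatogonia (log2 fold change -2.62, SE 0.34, adjusted p = 6.52e-05). In that comparison 6 of the 15 rose and 4 fell, beside 36.9% and 29.5% of all features, Emx2 by the largest amount upward.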

How the data were processed

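Stranded Illumina TruSeq libraries were made from 1 µg of total RNA and read as 100 bp pairs, per the labels' protocols. Per the submitters' processing notes, the tools were FastQC and Trim Galore, TopHat2 (2.0.12) and Cuffdiff (2.2.1), with mm10, the assembly GRCm38, as genome build. Options, annotation release and use of strand in counting are not given in these sources. As deposited by the authors, FPKM values are given per feature and library, already scaled for length and depth, and the authors' tables of called features hold a p-value and q-value each. Library depth is unknown apart from the steps described in the report.

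The mRNA table has 39336 features, of which 31 with a blank library were left out; the lncRNA tables were not used. The members, gene lists and tests were chosen with earlier results of these data known. Values were taken as log2(FPKM + 0.1) for the 20570 features that reached 0.2 FPKM in 3 or more libraries, which lets every one of the 75 genes be tested, and fitted over all 9 libraries with limma 3.58.1 (mean trend, R 4.3.3); p-values were adjusted by Benjamini-Hochberg over all features. Folds on this scale understate the change of low genes. The fit was tested on simulated data. Whole-family values were compared by exact permutation tests over libraries. All 75 genes matched GENCODE M21, 70 of them with a spliced model there; the file's coordinates, which count the start from 0, are given from 1. Every ± is an SD over 3 libraries.

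Genes named with each library's value are the 25 with the highest stage mean and those few said to be added; partner genes named are the 4 largest called changes per list and comparison. Clusters are runs of Olfr genes with gaps under 1 Mb, and neighbours are features within 10 kb that overlap or exceed 1 FPKM. Alternatives were other pseudocounts, filters, scaling, a replicate block, each library left out, other levels for the rule, and subtraction of the round spermatid share. Some neighbouring genes are not reported here.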

Additional observations from a re-analysis of the deposited data

How the results depend on the processing

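The round spermatid maximum of the whole family was kept, in summed level and in number of genes, under every alternative run. The exact permutation p ran from 0.00357 to 0.0107. The genes outside the 75, set apart by the same values, were also highest in round spermatids and are left out of this range. With a level of 0.1, 0.5 or 1 FPKM in the rule, 115, 39 or 24 Olfr genes qualified in place of 75, and 75 to 87 with each library left out in turn. Calls among the 75 genes depended on low values. A pseudocount of 1 FPKM left 5 of 39 calls in pachytene against spermatogonia. It left 20 of 58 in round spermatids against pachytene and 24 of 69 in round spermatids against spermatogonia. Over all 20570 features it called 5226 higher and 4214 lower, 3408 and 1623, and 5934 and 4053, in this order. For the partner genes it left 17 of 26 and 9 of 17 calls in the first pair of comparisons. A filter of 0.5 FPKM tested 41 of the 75 and called 33 and 40 in the comparisons with round spermatids. Over all features it called 4915 higher and 2418 lower against pachytene, and 6926 and 5410 against spermatogonia. With each library left out, 28 to 59 were called in round spermatids against pachytene and 39 to 69 in round spermatids against spermatogonia. The lowest values, 28 to 30 and 39 to 41, came when 1 of the round spermatid libraries was left out. In these runs 46 of the 75 passed the filter of 3 libraries. Over all features they called 4767 to 4795 higher and 2491 to 2570 lower against pachytene. Against spermatogonia they called 6841 to 6854 higher and 5938 to 6036 lower. Runs without a spermatogonia or pachytene library called, over all features, 5472 to 5607 higher and 2429 to 2567 lower in round spermatids against pachytene. Against spermatogonia these were 7510 to 7684 and 5318 to 6061. With a library left out or the filter of 0.5 FPKM, the number of features tested was not kept, so shares are not given. Subtracting the round spermatid share left 18 calls in pachytene against spermatogonia, and over all features 5318 called higher and 7259 lower. The replicate block gave 39, 60 and 69 calls among the 75 and 26, 17 and 25 among the partners. Over all features it called 6842 higher and 6452 lower, 5574 and 2550, and 7585 and 6095, in the same order. Same-numbered libraries did not deviate together (correlations across features from -0.077 to 0.031). This cannot tell whether they share a source animal, which the labels do not give. At these depths a gene at 0 was not detectable, which does not show that it is absent.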

Other observations

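The rule was also applied to other chemoreceptor genes of the mRNA table, where it chose features by the same values. Of 151 Olfr pseudogene rows, 10 qualified (6.62%), 9 of them in round spermatids. Olfr364-ps1 was listed at 0 in all 3 libraries of spermatogonia, 0.37, 0.391 and 0.312 FPKM in pachytene and 6.56, 5.97 and 6.3 FPKM in round spermatids, a level that 3 of the 75 intact genes exceeded. Of the vomeronasal receptors, 15 of 206 Vmn1r genes (7.28%) and 16 of 120 Vmn2r genes (13.3%) qualified, 14 and 13 of them in round spermatids and 1 and 2 in spermatogonia. Of the trace amine receptors (Taar) 0 of 15 and of the formyl peptide receptors (Fpr) 0 of 7 qualified. Taste receptors differed in stage: 2 of 3 Tas1r genes qualified in all 3 stages, and 2 of 35 Tas2r genes in spermatogonia alone. Of all features, 50.7% met the rule.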
